A study of Mus musculus with 2 samples.

Results

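Voltage-gated and related ion channel genes were compared in cerebral cortex between control mice and PS cDKO mice, which are conditional double knockouts for presenilin. Members were all genes of the families Kcn, Cacn, Hcn, Clcn and Scn (Scn followed by a digit) to which a probe set on the array was assigned as its single gene. This gave 88 probe sets for 68 genes, out of 8251 genes with a probe set of their own. Total RNA of mouse cerebral cortex had been hybridised to 1 array per genotype, both at 6 months of age. The labels state neither how many animals an array stands for nor the alleles and genotype of the control mice. As background on this line, the PS cDKO mice are described in the literature as lacking presenilin in excitatory forebrain neurons only after birth, through a Cre driven by the αCaMKII promoter, on a Psen2-null background. Other cortical cells thus keep part of their presenilin. With 1 array per group there is no replicate error, so every difference below is a description of these arrays, with no p-value.

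Voltage-gated channels open when the membrane potential changes. Sodium channels carry the upstroke of the action potential, calcium channels couple it to transmitter release and gene expression, and potassium channels end it and set the firing pattern. Each is built from pore-forming subunits and from auxiliary subunits that alter trafficking and gating. The name prefixes also take in genes that are not gated mainly by voltage: inward rectifiers (Kcnj), tandem-pore leak channels (Kcnk), small-conductance calcium-activated channels (Kcnn), and CLC proteins of endosomes and lysosomes that exchange chloride for protons. The label of voltage-gated channels therefore holds for only part of the members.

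Intensities are given as deposited, control first, in arbitrary units that cannot be compared between probe sets. Log2 ratios and folds are PS cDKO over control after the PS cDKO array was scaled up by 1.02. An intensity under 232, the 40th percentile of both arrays pooled, was set to that floor. A probe set above the floor on 1 array gives only a bound, and one below it on both arrays gives no ratio. Of the 88 channel probe sets 56 were above the floor on both arrays, 3 gave a bound and 29 gave no ratio. By gene, 48 of the 68 were above the floor on both arrays, 1 had a bound and 19 had no ratio.

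The channel genes as a whole sat evenly around the control level. Of the 49 with a ratio, 26 were higher and 23 lower in the PS cDKO, with a median log2 ratio of 0.0068, against 0.012 over all 5885 genes with a ratio. The share that was lower, 46.9%, stood beside 48.1% over all genes, of which 51.9% were higher. With the intensities as deposited 30 of the 49 were lower, since the ratios of 7 channel genes lay above 0 by less than the scaling step. An opposite sign under no scaling, quantile normalization or lowess was found for 8 channel genes in all: Cacna2d1, Clcn3, Clcn4, Clcn7, Kcna1, Kcnj4, Kcnj9 and Kcnk4. By gene value, a single channel gene, Kcne1, differed by at least 1.5-fold, downward. That is 2.04% of the 49, where 0.816% of all genes were at least 1.5-fold lower. No channel gene was at least 1.5-fold higher, where 1.12% of all genes were. A Kcnab2 probe set at least 3.63-fold lower gave only a bound, and that gene's value came from its other probe set. At a lower threshold of 0.32 on the log2 scale, 5 channel genes (10.2%) were lower and 6 (12.2%) higher, beside 8.36% and 8.05% of all genes. The 5 lower ones were Kcne1, Cacna1g, Clcn2, Kcnh1 and Kcnma1, and the 6 higher ones Clcn5, Cacna1e, Kcne1l, Kcnn4, Kcnj1 and Kcnu1.

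**Figure D1:**
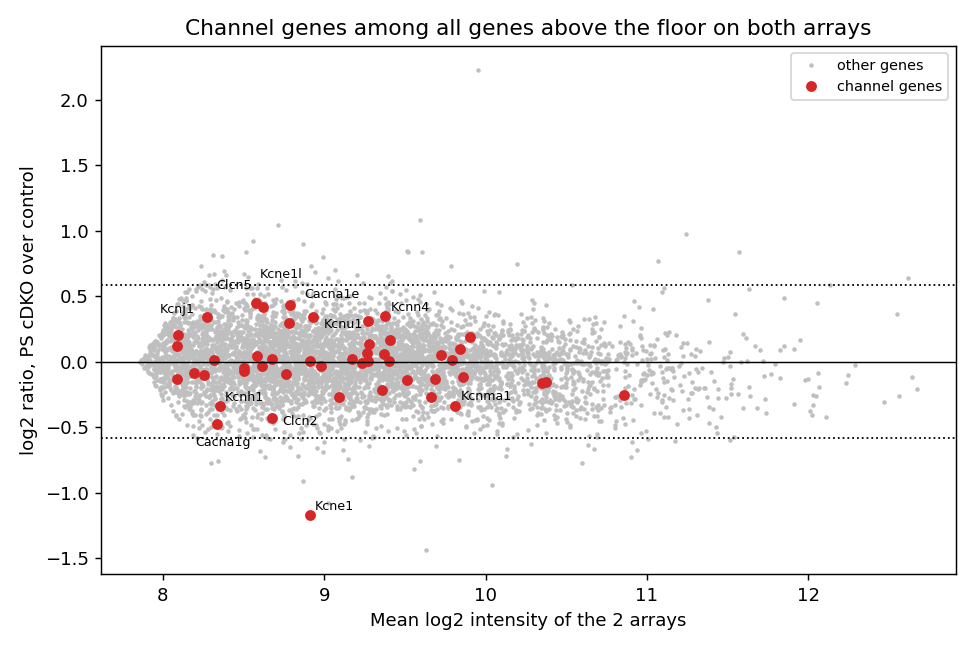
Log2 ratio of PS cDKO over control (vertical axis) against the mean log2 intensity of both arrays (horizontal axis) for genes above the floor on both arrays; red points are channel genes, grey points other genes, dotted lines mark 1.5-fold. Kcne1 is the only red point outside the dotted lines, and the other channel genes lie within the cloud of grey points.

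Markers of some cortical cell types differed between the same arrays, and their part in the channel values was not tested. Over all genes with a ratio 48.1% were lower and 51.9% higher. Of 11 genes listed as excitatory neuron markers with a ratio 8 were lower, with a median of -0.37, which is the Snap25 value. Snap25 and Syt1 in this list are not confined to excitatory neurons. Summed over every probe set of the list, those with no ratio included, intensities were 20432 on the control array and 15543 on the other. As units differ between probe sets, such a sum is weighted towards the brightest ones, here Snap25, Hpca and Cck. It does not measure the amount of a cell type. The sums in brackets below are formed likewise. Inhibitory neuron markers had a median of -0.19 (6 of 11 lower; 12106 against 10687). Astrocyte markers had a median of 0.20 (10 of 13 higher; 26808 against 31260.4) and microglia markers one of 0.47 (13 of 14 higher; 8756 against 12192). Oligodendrocyte markers had a median of -0.099 (5 of 8 lower; 12392 against 11234), endothelial and mural ones -0.034 (4 of 8 lower; 4852 against 4660.4) and choroid plexus ones -0.014 (3 of 5 lower; 4099 against 3509). Within the choroid plexus list Ttr was 1.84-fold lower (782 and 415) and Igfbp2 1.60-fold lower (492 and 301). The other members with a ratio were Cldn1, 1.01-fold lower, Folr1, 1.07-fold higher, and Aqp1, 1.17-fold higher. All 11 excitatory and 11 inhibitory neuron markers with a ratio were above the floor on both arrays. Among them were Snap25 (4705 and 3548), Slc32a1 (1135 and 942) and Gad1 (969 and 1014), the last of them higher in the PS cDKO. Cux2, Neurod6, Tle4, Dlx1, Dlx2, Dlx5, Gad2 (43.3 and 75.0) and Tac1 were below the floor on both. In whole cortex, fewer cells of a type and less RNA per cell cannot be told apart.

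Kcne1 encodes a single-pass auxiliary subunit that slows the Kcnq1 potassium channel, best known from heart and inner ear. Its only probe set read 722 in control cortex and 313 in the mutant, each above the floor. This is a log2 ratio of -1.17, or 2.25-fold lower. Counting Kcne1 itself, 5 of all 5885 genes differed by as much in either direction. With the floor at the 60th percentile the PS cDKO value fell under the floor and the bound was at least 1.79-fold lower. Its pore-forming partner Kcnq1 lay the other way, at 397 and 476, 1.23-fold higher, and a further Kcnq1 probe set below the floor read 103 and 142. The related Kcne1l was 1.33-fold higher (341 and 445), so that the 2 Kcne genes were on opposite sides of the control level.

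Kcnab2 encodes a cytoplasmic β subunit that binds Kv1 channels and promotes their delivery to axons. Its 2 probe sets were both lower but by very unequal amounts. The probe set with a suffix letter in its identifier read 890.3 and 721, a log2 ratio of -0.27 or 1.21-fold lower. It set the gene's value. The other read 842 in control cortex and 182 in the mutant, under the floor there, hence at least 3.63-fold lower; with no floor it was 4.52-fold lower. With the probe sets averaged, the bound counted at its limit, Kcnab2 became a second channel gene past 1.5-fold downward. Without suffixed probe sets the bound alone gave the gene's value, and Kcnab2 again passed 1.5-fold downward. The further β subunits gave no ratio, with Kcnab1 at 158 and 163 in one probe set and 172 and 155 in the other, and Kcnab3 at 195 and 166.

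Pore-forming Kv subunits showed little difference. Of 16 genes 10 had a ratio, 6 higher and 4 lower, with a median of 0.033, which was -0.00056 with the intensities as deposited. Among the delayed rectifiers of axons, Kcna1 was level at 317 and 312 and Kcna2 read 261 and 277, 1.09-fold of control. Kcnc1, which lets interneurons fire fast, was 1.15-fold higher (254 and 286). The A-type channel genes Kcnd1 (606 and 587) and Kcnd3 (649 and 662) were 1.01-fold lower and 1.04-fold higher. Kcna7, a Kv1 gene known mainly from muscle, was 1.10-fold lower (862 and 767). These values left the axonal and dendritic Kv1 to Kv4 genes with a ratio close to the control level.

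The ether-à-go-go genes split. Kcnh1 was 1.27-fold lower (367 and 284), whereas Kcnh2, the relative that carries the cardiac rapid delayed rectifier, was 1.04-fold of control (831 and 843). Kcns1, a silent subunit that modifies Kv2 channels without forming a channel alone, was 1.07-fold lower (316 and 288), and Kcns2 was below the floor (217 and 215). Kcna3 (192 and 197), Kcna4 (159 and 170.2), Kcna6 (149 and 186), Kcna5 (25.4 and 48.5; 66.4 and 76.7) and the main dendritic A-type gene Kcnd2 (51.1 and 56.2; 124 and 119) lay below the floor on both arrays. No statement on their direction can be drawn from them.

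**Figure D2:**
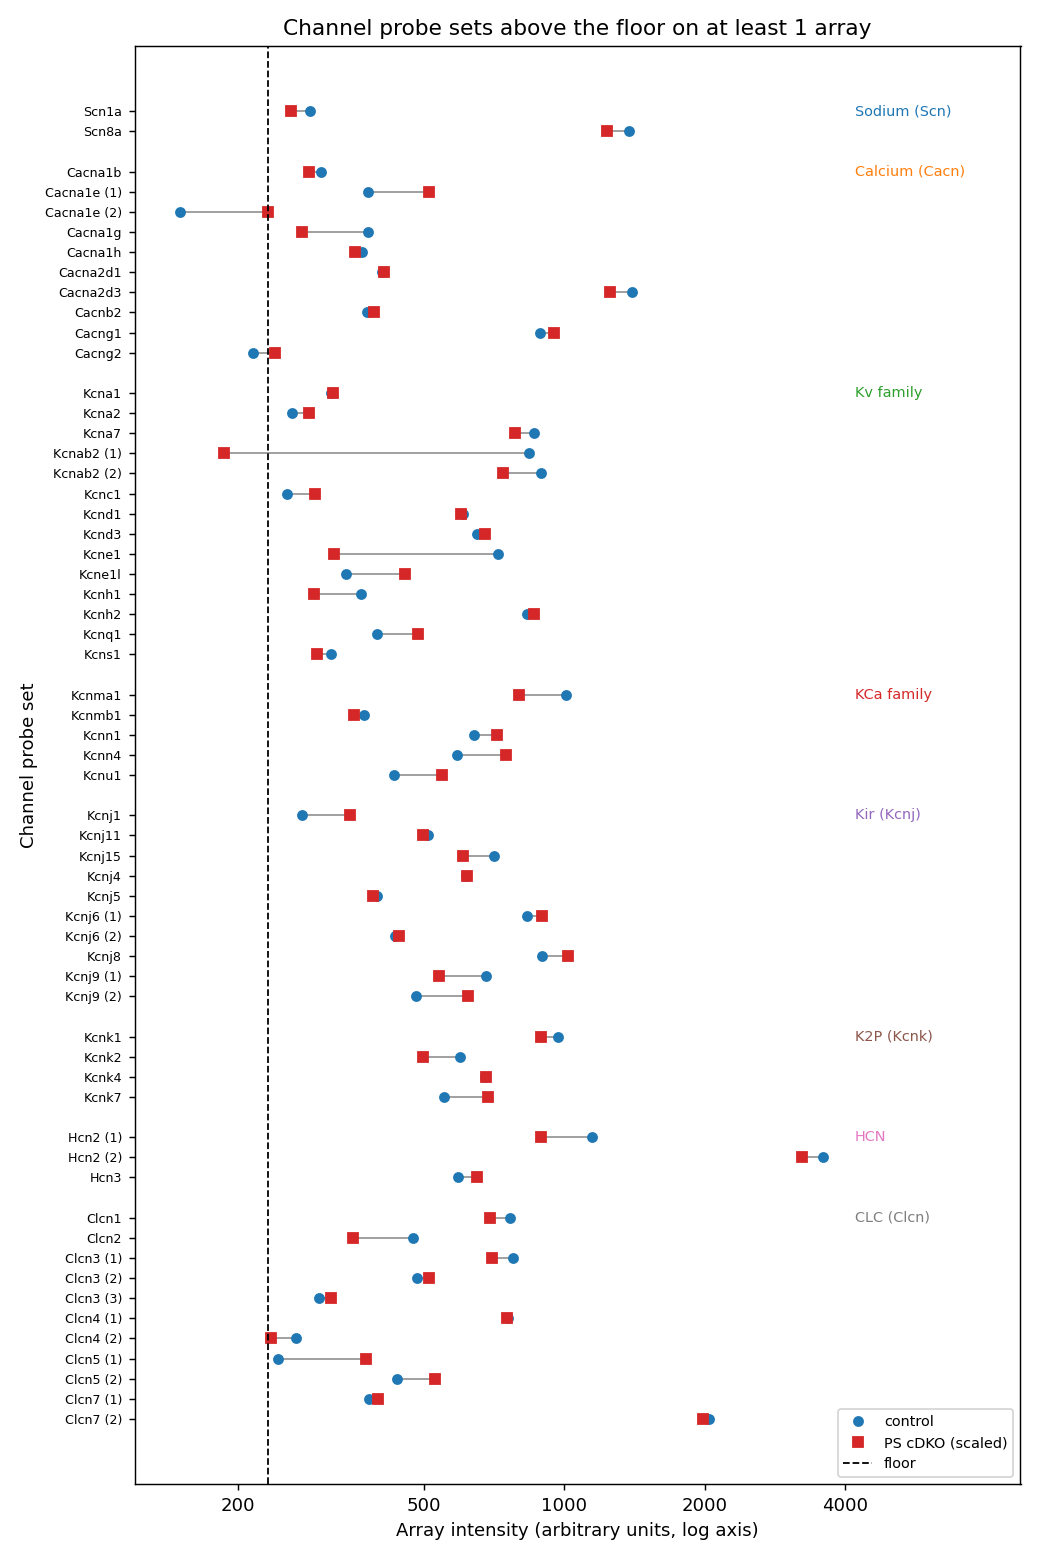
Intensity of each channel probe set above the floor on at least 1 array (horizontal log axis, arbitrary units), with control as blue circles, the scaled PS cDKO as red squares and the floor as a dashed line; rows are grouped by channel class, and numbers in brackets tell probe sets of a gene apart. The widest gaps are those of Kcne1 and of the first Kcnab2 probe set, which ends left of the floor.

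Calcium channel genes lay on both sides of the control level. Of 12 genes 9 had a ratio, 5 higher and 4 lower, with a median of 0.018, which became -0.016 with the intensities as deposited and -0.0081 after lowess. Cacna1g, the T-type channel behind burst firing, was 1.39-fold lower (379.9 and 267), the largest downward difference among pore-forming members. Cacna1e, the R-type channel, was 1.35-fold higher in its probe set above the floor (380.0 and 501). Its other probe set read 150.2 and 227, with the control below the floor and the scaled PS cDKO value at it, so that this bound says nothing of size. The presynaptic N-type gene Cacna1b was 1.06-fold lower (301 and 277) and Cacna1h, another T-type gene, 1.03-fold lower (369 and 348).

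The presynaptic P/Q-type gene Cacna1a (218 and 213), the L-type gene Cacna1c (142 and 153) and the muscle L-type gene Cacna1s (159 and 174) were below the floor. Of the 5 auxiliary calcium channel genes 4 were above the floor on both arrays and Cacng2 had a bound. Cacna2d3, an α2δ subunit that brings channels to the surface, was 1.11-fold lower (1399 and 1226), and Cacna2d1 was level (406 and 402). The β subunit Cacnb2 read 378 and 381. Cacng1, the γ subunit of muscle, was 1.07-fold higher (885 and 928). Cacng2 (stargazin), which also carries AMPA receptors to the synapse, read 215 and 234, a bound of at least 1.04-fold higher that without any floor was 1.12-fold.

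Sodium channel genes with a ratio were both lower. Scn8a, the channel of axon initial segments and nodes, was 1.12-fold lower (1379 and 1204), and Scn1a, prominent in parvalbumin interneurons, 1.10-fold lower (285 and 254). Over all genes, 47.7% differed from control by at least as much as Scn8a and 55.7% as much as Scn1a. Each had a further probe set below the floor, for Scn1a at 151 and 90.0 and for Scn8a at 50.2 and 65.4, the latter with the opposite sign. The other 4 gave no ratio. They were Scn3a (37.8 and 64.1), Scn7a (39.5 and 109), Scn9a (18.4 and 23.7) and the sensory neuron gene Scn10a (102 and 219.6). All 4 read higher in the PS cDKO below the floor, so that with no floor the median of the class turned from -0.15 to 0.59. No sodium channel β subunit was among the members.

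The calcium-activated potassium class had the highest median of the 8 classes, 0.17 over 5 genes, except with no floor, where that of the sodium class was above it. With the intensities as deposited the median was 0.14. Kcnn4, the intermediate-conductance channel of blood cells and microglia, was 1.27-fold higher (589.7 and 732). Kcnu1, the sperm channel, is in this class by gene family and not by calcium gating, and the class median includes it. It was 1.27-fold higher (433 and 535), and Kcnn1, a small-conductance channel of neurons, 1.12-fold higher (639 and 702). Kcnma1, the large-conductance (BK) channel that speeds spike repolarisation, lay the other way at 1008 and 781, 1.26-fold lower. Its auxiliary subunit gene Kcnmb1, known from smooth muscle, was 1.05-fold lower (372 and 347). Each of these 5 genes rests on a single probe set, and between 13.6% and 76.8% of all genes differed as much.

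Inward rectifier genes were level, with a median of 0.011 over the 8 of 11 with a ratio, and -0.023 with the intensities as deposited. Among the G protein-gated subunits that carry slow inhibition, both probe sets of Kcnj6 were near control (832 and 874; 433 and 432), and Kcnj5 read 396 and 379.6. Those of Kcnj9 disagreed, one 1.26-fold lower (680.1 and 527) and one 1.29-fold higher (481 and 608). Kcnj3, their common partner, was below the floor (201 and 170.0). The ATP-sensitive pore genes were Kcnj11, at 510.0 and 487, and Kcnj8, a gene of pericytes and smooth muscle, which was 1.14-fold higher (897 and 997). Kcnj4, a strong rectifier of forebrain neurons, read 616 and 604.

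The kidney gene Kcnj1 was 1.27-fold higher (274 and 340.0), and its further probe set, below the floor, read 161 and 216. Kcnj15 was 1.16-fold lower (706 and 594), while its further probe set read 165 and 34.8, under the floor on both arrays. Neither Kcnj2 (130.1 and 126) nor Kcnj12 (55.6 and 68.2) gave a ratio.

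Tandem-pore leak channels had a median of -0.055 over 4 of 5 genes. Kcnk2, a channel opened by stretch and arachidonic acid, was 1.20-fold lower (598 and 485), and Kcnk1 1.08-fold lower (969 and 873). Kcnk4, a close relative of Kcnk2, was level (675 and 663), and Kcnk7 was 1.24-fold higher (554 and 672). Kcnk3, an acid-sensitive channel, was below the floor (145 and 185).

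Of the hyperpolarization-activated (HCN) genes, Hcn2 was 1.19-fold lower and Hcn3 1.10-fold higher (592 and 634). Hcn2, which carries the pacemaker current of thalamus and cortex, was lower in both probe sets, at 1146 and 871 and at 3589 and 3156. These are log2 ratios of -0.36 and -0.15. Both Hcn2 probe sets have a suffix letter in their identifier, so the class without suffixed probe sets is Hcn3 alone.

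All 6 CLC genes had a ratio, 3 higher and 3 lower, with a median of -0.041. Clcn2, a hyperpolarization-activated chloride channel of neurons and glia, was 1.34-fold lower (474 and 344), and with the floor at the 60th percentile at least 1.18-fold lower. Clcn5, an endosomal exchanger, was 1.37-fold higher as the mean of 2 probe sets that lay on the same side, at 244 and 368 (1.54-fold) and at 439 and 517 (1.21-fold). The other vesicular exchangers were near control. Clcn3, with 3 probe sets above the floor, read 775 and 682, 483 and 501, and 297 and 309, a mean of 1.01-fold. Clcn4 was 1.06-fold lower (756 and 738; 266 and 229.7). Clcn7, the lysosomal exchanger, read 2048 and 1939.9 in one probe set and 381 and 389.6 in the other. Clcn1, the muscle chloride channel, was 1.10-fold lower (767 and 679), and its further probe set was below the floor (76.4 and 55.4).

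Pore-forming and auxiliary subunits did not separate when all classes were joined. The 40 pore-forming genes with a ratio had a median log2 ratio of 0.0055 and the 9 auxiliary ones 0.018, a difference of 0.012. With the intensities as deposited both medians were negative, at -0.028 and -0.016, and by means the difference was -0.12. Within the Kv class the 3 auxiliary genes had a median of -0.27 and the 10 pore-forming ones 0.033, a difference of -0.30. Without Kcne1 it was 0.039, without suffixed probe sets -1.18 and with both Kcnab2 probe sets averaged -1.10. Within the calcium-activated potassium class the single auxiliary gene, Kcnmb1, was at -0.067. The 4 pore-forming ones, with Kcnu1 counted among them, had a median of 0.26, a difference of -0.32. Within the calcium class the auxiliary median was 0.047 and that of 4 pore-forming genes -0.068, a difference of 0.12. With the floor at the 60th percentile it was -0.33, but the bound of Cacna1e (0.35) was then the only pore-forming value left. Each of these differences within a class rests on few genes. The auxiliary genes of the calcium class spanned -0.16 to 0.10, with the Cacng2 bound at its limit, inside the span of its pore-forming genes (-0.47 to 0.43), whereas those of the Kv class spanned -1.17 to 0.42, beyond that of its pore-forming genes (-0.34 to 0.29).

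**Figure D3:**
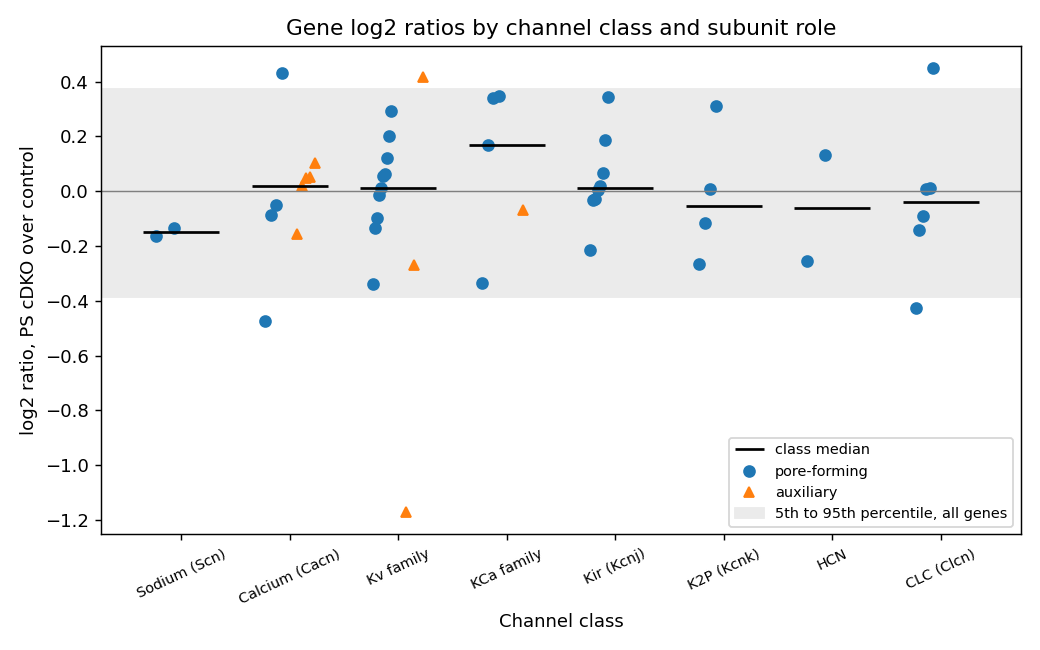
Log2 ratio of each channel gene (vertical axis) by class (horizontal axis), with blue circles for pore-forming and orange triangles for auxiliary subunits, black lines for class medians and a grey band from the 5th to the 95th percentile of all genes above the floor on both arrays, -0.38 to 0.37. Kcne1, Cacna1g and Clcn2 lie below the band, Clcn5, Cacna1e and Kcne1l above it, and all class medians lie inside it.

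Agreement between probe sets of a gene was the only repeated measurement, on the same 2 hybridisations. Of the 68 channel genes 18 had more than 1 probe set, and 7 had more than 1 above the floor on both arrays. In 4 of the 7 (Clcn4, Clcn5, Hcn2 and Kcnj6) all such probe sets had the same sign, and in Clcn3, Clcn7 and Kcnj9 they did not. For Clcn4 the sign rests on a probe set (756 and 738) at a log2 ratio of -0.00079, which is level. With the intensities as deposited 3 of 7 had the same sign, since a Kcnj6 probe set (433 and 432) lay within the scaling step of 0, and after quantile normalization or lowess 4 of 6 did. The main share is 57.1%, beside 55.7% of 749 genes of the whole array. With no floor, 12 of 18 channel genes (66.7%) had probe sets of a single sign, beside 52.0% of 2073 genes. From pairs of probe sets over the whole array, a robust SD of 0.21 was estimated for the log2 ratio of 1 probe set, and many of the channel ratios given here are smaller than that.

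**Figure D4:**
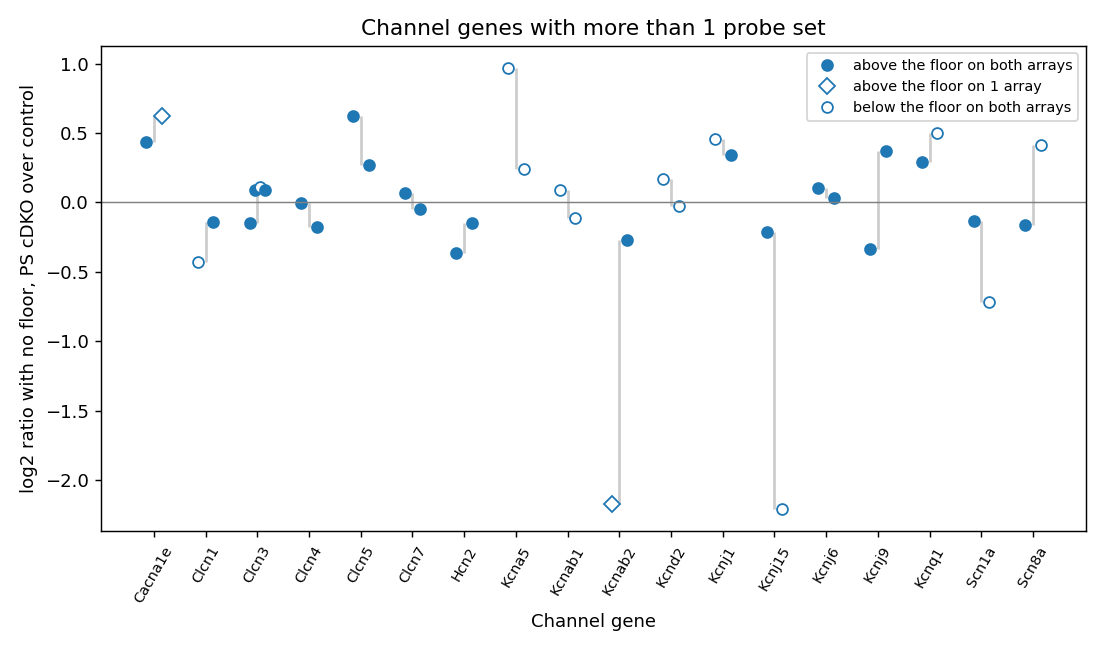
Log2 ratio with no floor (vertical axis) of each probe set of the 18 channel genes with more than 1 (horizontal axis); filled circles are above the floor on both arrays, open diamonds on 1 and open circles on none, and grey lines join probe sets of a gene. The longest lines are those of Kcnab2 and Kcnj15, each of which has 1 probe set near -2.2 and another above -0.3.

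Genes that anchor or modulate channels were examined as the surrounding machinery. Of 10 scaffold and anchor genes with a ratio 7 were lower, with a median of -0.10, where 48.1% of all genes were lower. None reached 1.5-fold, where 0.816% of all genes were at least 1.5-fold lower and 1.12% higher. With so few genes such counts are a description only. Ank3 (ankyrin-G), which holds sodium channels and Kcnq channels at the axon initial segment, was 1.19-fold lower, and Ank1 1.20-fold lower. Dlg3, a synaptic scaffold, was 1.10-fold lower and Cntnap1, of the paranodal junction, 1.23-fold higher. Modulators had a median of -0.027 over 17 genes, 11 of them (64.7%) lower, beside the same 48.1%. Vsnl1, a neuronal calcium sensor, was 1.53-fold lower, Stx1a, the syntaxin that binds presynaptic calcium channels, 1.38-fold and Gng3, a G protein γ subunit, 1.35-fold lower, whereas Gnb1, a G protein β subunit, was 1.68-fold higher. Dpp6, the auxiliary protein of A-type channels outside the name rule, was level at 1133 and 1086.

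Pumps and exchangers that maintain the ion gradients had a median of 0.14 over 11 genes, 6 of them higher, where 51.9% of all genes were. With the floor at the 60th percentile the median was -0.039. Slc12a5, the neuronal chloride extruder, was 1.27-fold higher (345 and 428), while Slc4a3, an anion exchanger, was 1.33-fold, Atp2b2, a plasma membrane calcium pump, 1.28-fold and Fxyd7, a brain regulator of the sodium pump, 1.18-fold lower.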

How the data were processed

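The authors deposited 1 linear intensity per probe set and array; for the software, background step and scaling, nothing was stated in the labels. Some deposited intensities were negative (13 control, 18 PS cDKO). Of 12418 probe sets 10829 had 1 symbol in the platform annotation, 396 several and 1193 none. All 68 member genes had their gene ID in a RefSeq table (GRCm38.p6), used for names only. The PS cDKO array was scaled to a median log2 ratio of 0 over probe sets above the median on both arrays (0.034 added), a floor was set at the 40th percentile, and log2 taken. Gene values are means over probe sets that exceed this floor on each array, otherwise over bounds. Classes and roles followed the symbols. Members, lists and thresholds were chosen with earlier results of these data known. All members are listed by class with their status. The rule gave values for the 12 highest and 12 lowest, the 4 largest ratios and 3 brightest of each class, all bounds and genes with several probe sets; intensities of the other members are given for completeness. Of each partner list, the 4 largest ratios were named; Dpp6 and the marker genes named singly were chosen after their values were seen. Protein and promoter sequences are not used here. Counts were by size, with no test. The procedure was tried on simulated 4-fold changes in genes with 1 probe set and a control intensity well above the floor. That trial does not bear on smaller ratios, on values near the floor or on probe sets that disagree. Alternatives were no scaling, quantile, lowess (span 0.3), other floors, the brightest probe set, no suffixed probe sets, no bounds, a log2 threshold of 0.32, 2-fold, and means. Python 3.11.15, numpy 2.4.6, pandas 2.3.3, statsmodels 0.14.6 and matplotlib 3.10.9 were used.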

Additional observations from a re-analysis of the deposited data

How the results depend on the processing

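Leaving out an array was not possible, with 1 in each group. No paired analysis was possible because there is a single array on each side. A median was taken as moved at a change of 0.1 on the log2 scale. A count was taken as moved if it changed by more than 1.5-fold, or to or from 0. The median of all channel genes stayed between -0.027 and 0.026. The count of channel genes at least 1.5-fold lower, 1, was 5 at a log2 threshold of 0.32, 2 with the floor moved to the 20th percentile, 3 with no floor, 2 without suffixed probe sets and, in alternatives chosen after seeing the data, 0 without Kcne1 and 2 with the Kcnab2 probe sets averaged. The count at least 1.5-fold higher, 0, was 6, 1, 4 and 1 in the first 4 of these. The shares over all genes changed too, from 0.816% lower and 1.12% higher. At the log2 threshold of 0.32 they were 8.36% and 8.05%. With the floor at the 20th percentile, where 63 channel genes had a ratio, they were 1.08% and 2.15%. With no floor (68 channel genes) they were 2.13% and 5.03%, and without suffixed probe sets (45 channel genes) 0.87% and 1.27%. Without suffixed probe sets the HCN median was 0.13 and the Kv auxiliary minus pore-forming difference -1.18. With the Kcnab2 probe sets averaged that difference was -1.10, and without Kcne1 0.039. The sodium median with no floor was 0.59. With the floor at the 60th percentile the pump median was -0.039 and the calcium auxiliary minus pore-forming difference -0.33. The latter then rested on the bound of Cacna1e as its only pore-forming value. By means, the difference over all classes was -0.12. Of the 7 genes with several probe sets above the floor 4 had 1 sign; the number with 1 sign was 7 of 11, 2 of 4 and 2 of 3 with the lower floor, the higher floor and no suffixed probe sets. The cause was not tested beyond what each alternative leaves out. Scaling alternatives for these, chosen after seeing the data, gave 3 or 4. The other 165 alternative values of these results stayed within the limits. Those limits let medians near 0 change sign. The Kv median, 0.011, was -0.067 by means, and the Kcnk median, -0.055, was 0.0068 with the floor at the 20th percentile.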

Other observations

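Channels known mainly from outside the brain also gave intensities above the floor. A signal above the floor is not taken here as proof of expression in cortex, which was not tested. Among these channels, Kcnn4 is also one of microglia. In a list chosen after the values were seen, of 13 channel genes known mainly from muscle, kidney, heart, blood, sensory ganglia or sperm, 10 had a ratio, with a median log2 ratio of 0.017 and 5 of 10 lower. In a second such list, of 31 channel genes of cortical neurons, 24 had a ratio, with a median of 0.0055 and 11 lower. After lowering the floor to the 20th percentile, medians were 0.14 over 12 and 0.0030 over 30 genes. Kcne1, the lowest channel gene, belongs to the first list.

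Large ratios with no floor also came from probe sets below the floor on both arrays. Scn7a was 2.82-fold higher (39.5 and 109), Scn10a 2.21-fold higher (102 and 219.6), and the dimmer Kcnj15 probe set 4.63-fold lower (165 and 34.8).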
